A study of Mus musculus with 6 samples.

Results

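The genes described here encode laminins, nidogens and other non-collagen proteins of the extracellular matrix, measured in mouse liver under 2 diets. They are 34 genes listed by name. The rule takes no measured value, but the list was drawn up with earlier results of these data known, so the counts below describe it and are no independent evidence. A probe set belonged to one of them if the platform annotation gave it that gene symbol alone. In all 73 probe sets of 33 genes met this rule, among 34945 probe sets of 18193 genes with 1 symbol. Fbn1, the fibrillin-1 gene, had no probe set here and was not analysed. Male C57BL/6 mice began the feeding at 8 weeks of age and received either a normal diet, whose composition the labels do not give, or a diet with 60% of its calories from fat, in both groups for 12 weeks. Each diet had 6 mice, and liver RNA of 2 mice was pooled for each array, so that the array is the replicate (n = 3 per diet) and the spread between single mice is not seen. The values are log2 expression levels, and a difference is the mean of the high-fat arrays minus the mean of the normal diet arrays, written ± its standard error (SE) from the limma model.

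Basement membranes are thin sheets beneath epithelia and around vessels and muscle. Laminins, trimers of an alpha, a beta and a gamma chain, polymerise into one network and collagen IV into another, and nidogens and the proteoglycan perlecan connect them. The interstitial matrix is built of collagen fibrils, whose assembly is tuned by small leucine-rich proteoglycans such as decorin and lumican, and of fibronectin and elastic fibres, while matricellular proteins such as periostin and SPARC bind matrix and cells and have little structural role of their own. In the liver hepatocytes secrete plasma fibronectin, sinusoids lack a continuous basement membrane, and hepatic stellate cells, portal fibroblasts and endothelial cells are known as main sources of the other proteins.

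The arrays carried the marks of liver. Albumin (Alb) lay at means of 14.40 and 14.47 under the normal and the high-fat diet, and the log2 of the summed linear levels of 7 hepatocyte markers was 16.28 to 16.39 on the normal diet arrays and 16.28 to 16.35 on the high-fat arrays. Arrays of the high-fat group correlated with each other across probe sets at a Pearson's r of 0.994 to 0.995, and those of the normal diet group at 0.984 to 0.992. The median SD of a tested matrix gene was 0.136 under the normal diet and 0.132 under the high-fat diet, against 0.166 and 0.117 for all tested genes. Genes entered the test if their strongest probe set exceeded the 40th percentile of an array in at least 3 of 6 arrays. This kept 31 of the 33 matrix genes, 28 of them above that level on all 6 arrays. Lamc3 exceeded it on 1 array and Thbs1 on 0, and neither was tested.

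Periostin (Postn) and nidogen-1 (Nid1) differed most clearly among the matrix genes, at 3.98-fold and 2.68-fold higher levels under the high-fat diet. The fibulin genes Fbln5 and Efemp1, the decorin gene Dcn and the SPARC-like gene Sparcl1 were also higher, and fibronectin (Fn1) was lower. In total 6 of 31 tested matrix genes rose, 1 fell and 24 were not called at a limma adjusted p below 0.05. This is 19.4% higher and 3.23% lower, beside 5.87% and 1.73% of all 14071 tested genes (826 and 244 genes, or 597 and 299 after quantile normalization). The median difference was 0.26 over the 31 genes and 0.003 over all tested genes, and 23 of the 31 differences were above 0 (24, 25 and 27 after quantile normalization, cyclic loess and median centring). In 17 of the 31 genes, or 54.8%, no array of one diet lay within the range of the other, against 35.8% of all tested genes, and 15 of these were higher under the high-fat diet, a direction that held for 21.1% of all tested genes. In bulk liver RNA a change in the number of cells that make a transcript and a change in RNA per cell cannot be told apart.

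**Figure D1:**
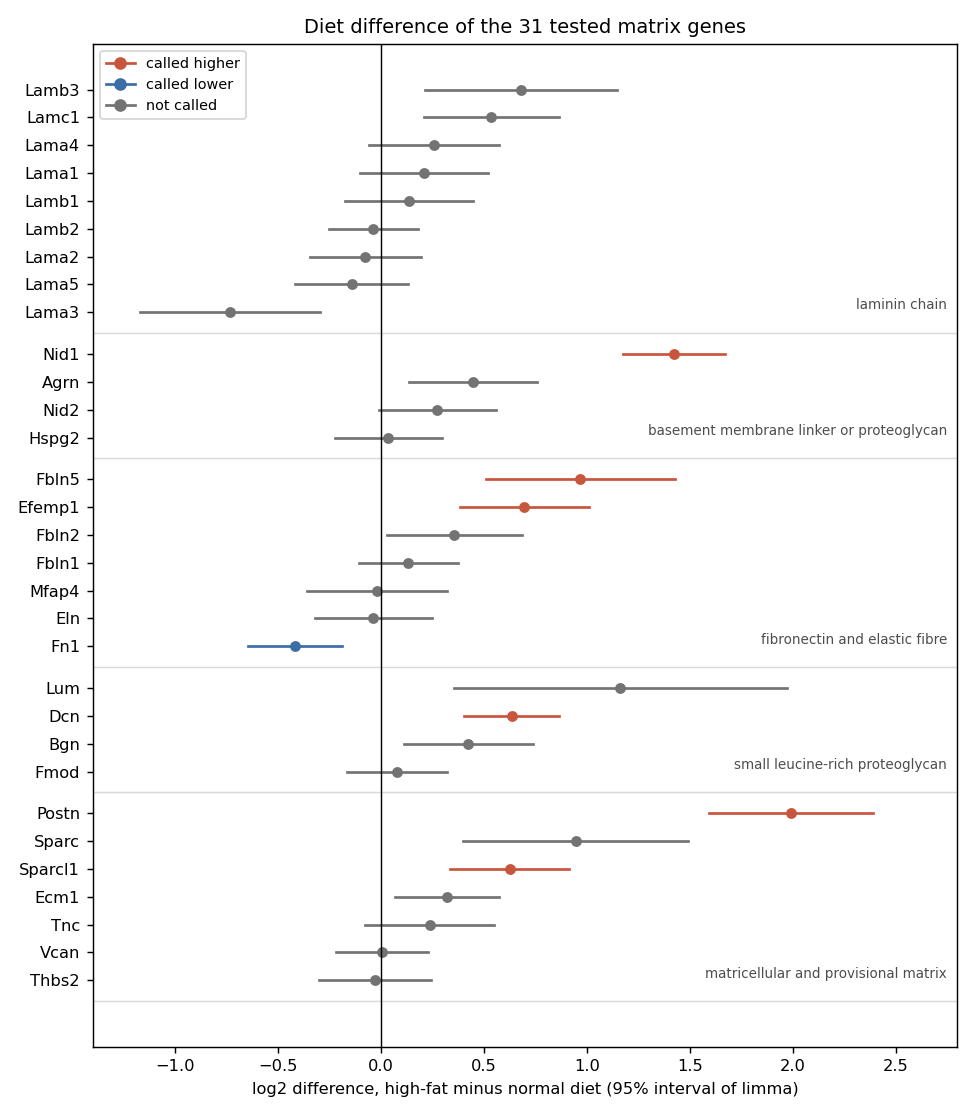
Difference in log2 level, high-fat minus normal diet, of the 31 tested genes, grouped by role, with points for limma's estimate and lines for its 95% interval (n = 3 arrays per diet). Postn (1.99) and Nid1 (1.42) lie farthest to the right, Fn1 (-0.42) is the only called decrease, and Lama3 (-0.73) lies lower without a call.

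The promoters of called genes are shown as a description, and whether these genes share control was not tested. The RefSeq promoter table (GRCm38.p6) held 4 of the 7 called genes, Nid1, Postn, Fbln5 and Efemp1, and each window runs from 250 bases before the start site to 50 bases from it. The windows are chr13:13437352-13437651 on the plus strand for Nid1, chr3:54360857-54361156 on the plus strand for Postn, chr12:101819070-101819369 on the minus strand for Fbln5 and chr11:28852955-28853254 on the plus strand for Efemp1. Capitals mark exact matches on either strand to a GC box (GGGCGG), an AP-1 motif (TGANTCA), a SMAD motif (CAGACA), the TATA box letters (TATAAA) or a TEAD motif (GGAATG), and no marked matches overlap.
Nid1: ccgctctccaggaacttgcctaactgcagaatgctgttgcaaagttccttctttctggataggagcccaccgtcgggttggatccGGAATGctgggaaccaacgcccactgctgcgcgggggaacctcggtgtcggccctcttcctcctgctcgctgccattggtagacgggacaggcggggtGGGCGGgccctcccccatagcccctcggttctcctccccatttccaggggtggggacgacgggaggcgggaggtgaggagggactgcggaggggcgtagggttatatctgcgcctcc
Postn: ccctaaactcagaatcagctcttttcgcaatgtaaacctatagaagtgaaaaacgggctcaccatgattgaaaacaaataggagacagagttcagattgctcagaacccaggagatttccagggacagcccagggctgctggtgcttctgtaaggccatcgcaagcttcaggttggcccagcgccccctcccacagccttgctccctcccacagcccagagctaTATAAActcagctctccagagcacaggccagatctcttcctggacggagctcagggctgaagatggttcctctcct
Fbln5: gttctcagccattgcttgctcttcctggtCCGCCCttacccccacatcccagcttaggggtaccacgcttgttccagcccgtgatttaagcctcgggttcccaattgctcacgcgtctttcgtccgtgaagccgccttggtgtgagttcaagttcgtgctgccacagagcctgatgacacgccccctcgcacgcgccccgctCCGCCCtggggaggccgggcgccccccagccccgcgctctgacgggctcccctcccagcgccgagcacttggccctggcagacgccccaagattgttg
Efemp1: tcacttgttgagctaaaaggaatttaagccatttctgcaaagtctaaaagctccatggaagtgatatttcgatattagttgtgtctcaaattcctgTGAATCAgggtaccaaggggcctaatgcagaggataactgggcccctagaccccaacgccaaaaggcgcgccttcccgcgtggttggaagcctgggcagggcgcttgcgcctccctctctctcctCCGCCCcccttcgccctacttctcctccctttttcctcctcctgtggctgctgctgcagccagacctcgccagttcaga

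Positions below give the first letter of a match relative to the start site, which is position 1. The GC box stands at -67 in Nid1, at -221 and -48 in Fbln5 and at -29 in Efemp1, and 35.7% of 32851 promoter windows of this length hold one. Postn has a TATA box at -26, which 13.6% of windows hold somewhere. The AP-1 motif occurs in Efemp1, at -154 (7.81% of windows), and the TEAD motif in Nid1, at -165 (14.7% of windows). Postn and Fbln5 each have a further start site in the table: the other Postn window has none of these letters, and the other Fbln5 window has a SMAD motif at -15 (21.0% of windows). The G and C content of the windows shown is 64.7% for Nid1, 53.0% for Postn, 65.7% for Fbln5 and 54.3% for Efemp1, beside a median of 52.7%. These matches describe the letters and not binding.

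Limma called 0 laminin chains in either direction, and at an unadjusted p below 0.05 there were 2 higher and 1 lower, beside 18.1% and 9.46% of all tested genes. Of 10 chains 9 were tested, and 5 differences were above 0 and 4 below. The alpha-3 chain gene Lama3 and the beta-3 chain gene Lamb3, whose products join in a laminin of epithelial basement membranes, lay on opposite sides of 0. Lama3 measured 5.23, 5.09 and 4.61 on the normal diet arrays and 4.10, 4.49 and 4.13 on the high-fat arrays. All high-fat arrays lay below all normal diet arrays, with a difference of -0.73 ± 0.19 and a limma adjusted p of 0.0582. Lama3 passed without normal diet 3 (-0.92, adjusted p = 0.0105) and with array weights (-0.79, adjusted p = 0.0222). A weaker Lama3 probe set differed by -0.07, so the difference rests on a single probe set.

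Lamb3 measured 4.28, 5.0 and 4.38 under the normal diet and 5.41, 5.24 and 5.05 under the high-fat diet. Normal diet 2 lay close to the high-fat arrays and the others well below (0.68 ± 0.20, limma adjusted p = 0.0829), and without normal diet 2 the difference passed at 0.90 (adjusted p = 0.0205). The gamma-1 chain gene Lamc1, part of most laminins, measured 4.39, 4.46 and 4.32 against 4.64, 5.11 and 5.03. Its groups did not overlap, and high-fat 1 was the lowest of its group. The difference of 0.54 ± 0.14 did not pass (limma adjusted p = 0.0622) but did without high-fat 1 (0.68, adjusted p = 0.0494). The other Lamc1 probe set differed by -0.13.

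The remaining laminin chains moved little. The endothelial alpha-4 chain gene Lama4 differed by 0.26 ± 0.13 (limma adjusted p = 0.256), with arrays of 4.01 to 4.43 under the normal diet and 4.43 to 4.63 under the high-fat diet that came close without overlapping. Lama1, Lama2 and Lama5, for further alpha chains, differed by 0.21, -0.08 and -0.14, and the beta chain genes Lamb1 and Lamb2 by 0.14 and -0.04. The 95% intervals of these 5 genes together ran from -0.42 to 0.52. A weak Lama5 probe set lay at 3.93 to 4.08 under the normal diet and 3.61 to 3.71 under the high-fat diet without passing (-0.37, limma adjusted p = 0.0788 over all probe sets), while the others differed by -0.14 and 0.07.

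Among the proteins that connect the networks, Nid1 rose and the others were not called. Nid1, whose product binds both laminin and collagen IV, measured 5.65, 5.84 and 5.72 under the normal diet and 7.28, 7.12 and 7.08 under the high-fat diet. The arrays of each diet lay close together, and the groups were far apart. The difference was 1.42 ± 0.11 (limma adjusted p = 0.00237, higher in 3 of 3 arrays), and it passed whichever array was left out, at 1.36 to 1.47. A second probe set, at 4.19 to 4.44 under the normal diet and 4.45 to 4.66 under the high-fat diet, differed by 0.19 without passing (limma adjusted p = 0.381 over all probe sets). The average of all 3 Nid1 probe sets, of which the weakest was below the level filter on all arrays, rose by 0.51 (adjusted p = 0.0146).

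Nid2, the other nidogen gene, lay at 3.54 to 3.78 under the normal diet, near the level filter, and at 3.73 to 4.02 under the high-fat diet (0.27 ± 0.12, limma adjusted p = 0.196). The agrin gene Agrn, a heparan sulphate proteoglycan of basement membranes and synapses, measured 6.50, 6.04 and 6.30 against 6.69, 6.76 and 6.73. Its high-fat arrays were tightly grouped above all normal diet arrays (0.45 ± 0.13, limma adjusted p = 0.0839), and it passed without normal diet 1 (0.56, adjusted p = 0.0440) and with array weights (0.51, adjusted p = 0.0423). Perlecan (Hspg2) differed by 0.04 ± 0.11, with an interval of -0.22 to 0.30. The sign of that small value turned after quantile normalization (-0.10) and cyclic loess (-0.09).

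Fibronectin and the elastic fibre genes divided. Fn1, a glycoprotein that hepatocytes release into plasma, measured 11.93, 12.07 and 12.09 under the normal diet and 11.55, 11.68 and 11.62 under the high-fat diet. It was lower in 3 of 3 arrays with no overlap, by 1.34-fold (-0.42 ± 0.10, limma adjusted p = 0.0448). This call sat at the threshold. It ended after median centring (-0.37, adjusted p = 0.0596), without normal diet 2 or 3 (-0.40 and -0.39, adjusted p = 0.0939 and 0.0679) and without high-fat 1, 2 or 3 (-0.39, -0.45 and -0.42, adjusted p = 0.157, 0.124 and 0.140). A second Fn1 probe set, at 4.67, 4.39 and 5.21 against 3.80, 3.61 and 3.89, was called lower over all probe sets (-0.98 ± 0.20, limma adjusted p = 0.0419). The average of both Fn1 probe sets fell by 0.70 (adjusted p = 0.0229).

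Fbln5, which encodes a fibulin needed for elastic fibre assembly, measured 4.78, 4.25 and 4.89 under the normal diet and 5.43, 5.52 and 5.87 under the high-fat diet. Every high-fat array stood above the normal diet arrays, of which normal diet 2 was lowest. Fbln5 rose 1.95-fold (0.97 ± 0.20, limma adjusted p = 0.0309). Efemp1, the gene of another fibulin, measured 5.63, 5.34 and 5.27 against 6.02, 6.03 and 6.28 and rose 1.62-fold (0.70 ± 0.13, limma adjusted p = 0.0264). Its groups were separated by a gap smaller than that of Fbln5, between normal diet 1 and high-fat 1. Leaving out high-fat 1, 2 or 3 ended both calls, with Fbln5 at 1.05, 1.01 and 0.83 (adjusted p = 0.0760, 0.0985 and 0.117) and Efemp1 at 0.74, 0.74 and 0.61 (adjusted p = 0.0773, 0.0835 and 0.103). Efemp1 was also not called in the absence of normal diet 2 (0.66, adjusted p = 0.0608). The average of both Fbln5 probe sets, of which the other was below the level filter on all arrays, rose by 0.47 (adjusted p = 0.0361).

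The other fibulins and elastic fibre genes did not pass. Fbln2, of basement membranes and vessel walls, lay at 4.57 to 4.83 under the normal diet and 4.92 to 5.34 under the high-fat diet (0.36 ± 0.14, limma adjusted p = 0.155). Fbln1 differed by 0.13 ± 0.10, and a weaker probe set of it by -0.21. Elastin (Eln), the core of the elastic fibre, differed by -0.04 ± 0.12, with an interval of -0.32 to 0.25, and its other probe set by -0.02. Mfap4, a microfibril-associated gene, differed by -0.02 ± 0.14, and that value was above 0 after each of the scalings tried.

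All 4 small leucine-rich proteoglycan genes had differences above 0, and Dcn rose. Dcn, whose product binds collagen fibrils and TGF-beta, measured 9.93, 9.96 and 9.97 under the normal diet and 10.54, 10.51 and 10.71 under the high-fat diet. The normal diet arrays were nearly identical and lay below all high-fat arrays. Dcn rose 1.55-fold (0.63 ± 0.10, limma adjusted p = 0.0129). The call was lost when high-fat 1, 2 or 3 was left out (0.66, 0.67 and 0.57, adjusted p = 0.0561, 0.0523 and 0.0631). It was also lost when both Dcn probe sets were averaged (0.26, adjusted p = 0.101), the other lying below the level filter on 5 of 6 arrays at a difference of -0.12.

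The lumican gene Lum, the next gene to Dcn in the RefSeq gene table, measured 5.98, 6.49 and 6.24 against 6.94, 8.26 and 6.99. High-fat 2 stood well above the other high-fat arrays, and no arrays overlapped. Lum was 2.24-fold higher without passing (1.16 ± 0.35, limma adjusted p = 0.0850), and without high-fat 2 the difference was 0.73 (adjusted p = 0.0991). Kera and Epyc, which encode proteins of the same family and follow Lum in that table, were below the level filter and differed by -0.006 and -0.094. Biglycan (Bgn), close to decorin in structure, measured 8.66, 8.78 and 8.54 against 8.85, 9.22 and 9.19 (0.42 ± 0.13, limma adjusted p = 0.0956), and its other probe sets differed by 0.51 and 0.28. Fibromodulin (Fmod), a regulator of fibril thickness, differed by 0.08 ± 0.10, and its 4 probe sets above the level filter ranged from -0.22 to 0.26.

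**Figure D2:**
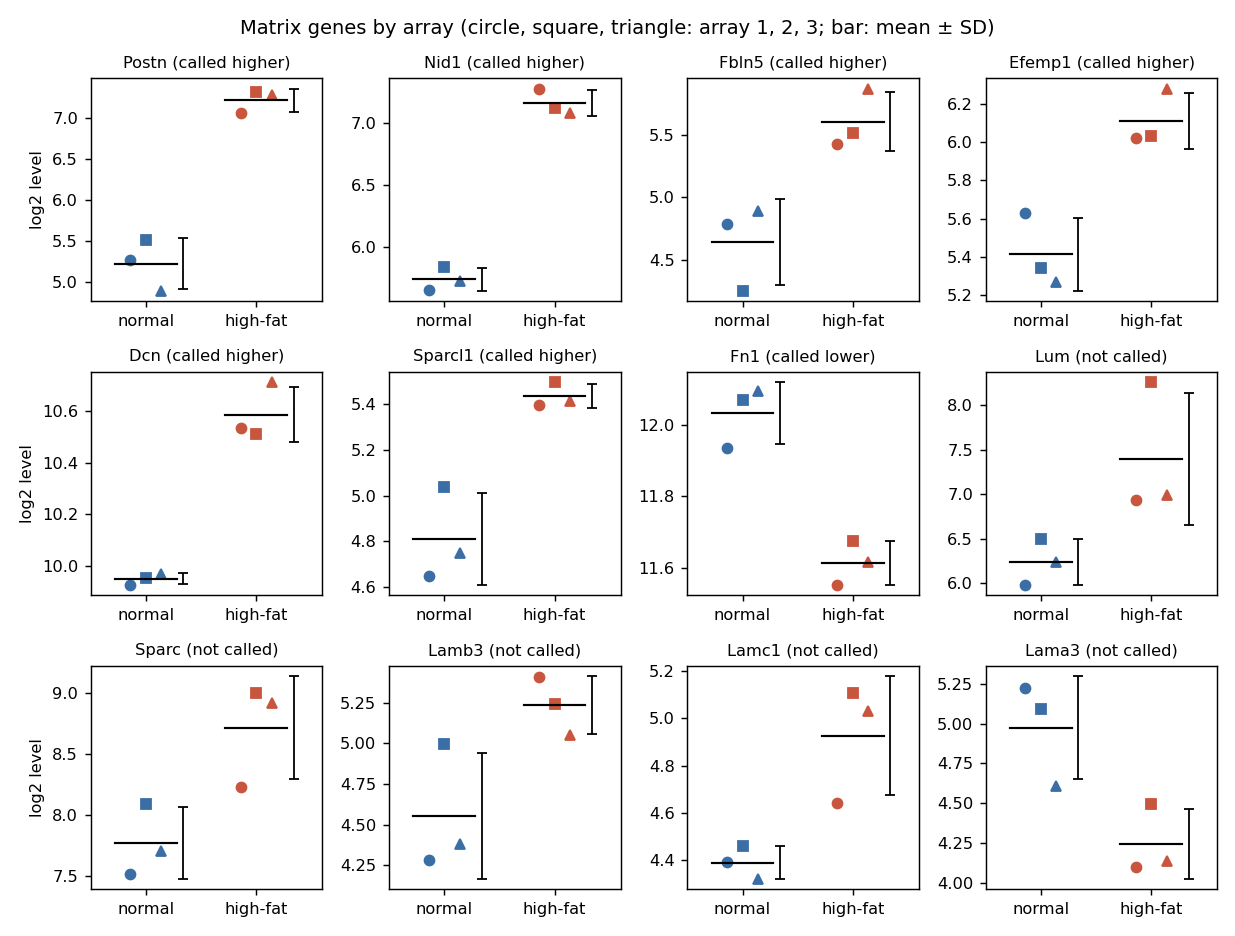
Log2 level on each array of the 7 called genes and the 5 other tested genes that differed by at least 0.5, with black lines for the mean and bars for the SD (n = 3 per diet, each panel with its own axis). No panel shows an overlap of the diets. High-fat 2 lies at 8.26 for Lum against 6.94 and 6.99, and high-fat 1 is lowest for Sparc and Lamc1.

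Matricellular genes held the largest difference of the matrix genes. Postn, which is known to be made by activated fibroblasts and to bind collagen and integrins, measured 5.27, 5.52 and 4.89 under the normal diet and 7.06, 7.31 and 7.28 under the high-fat diet. All high-fat arrays lay far above all normal diet arrays, of which normal diet 3 was lowest. The difference was 1.99 ± 0.17 (limma adjusted p = 0.00300, higher in 3 of 3 arrays), and it passed whichever array was left out, at 1.82 to 2.14.

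Sparcl1, an antiadhesive relative of SPARC found in vessels, measured 4.65, 5.04 and 4.75 against 5.40, 5.5 and 5.41. The high-fat arrays lay closely together above the normal diet arrays, and Sparcl1 rose 1.54-fold (0.62 ± 0.12, limma adjusted p = 0.0286). Leaving out normal diet 1 ended the call (0.54, adjusted p = 0.0539), as did leaving out high-fat 1, 2 or 3 (0.64, 0.59 and 0.64, adjusted p = 0.0964, 0.116 and 0.103). Sparc itself, a collagen-binding glycoprotein, measured 7.52, 8.09 and 7.70 against 8.23, 9.0 and 8.92. High-fat 1 lay just above normal diet 2, and the other high-fat arrays were well above. Sparc was 1.93-fold higher without passing (0.95 ± 0.23, limma adjusted p = 0.0537). It passed without high-fat 1 (1.19, adjusted p = 0.0423), without normal diet 2 (1.11, adjusted p = 0.0494) and after median centring (0.99, adjusted p = 0.0489). A second Sparc probe set gave 0.94, and the weakest, at 5.07 to 5.34 on all arrays, gave -0.007.

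Ecm1, which is known to hold TGF-beta in its latent form in liver, lay at 8.49 to 8.68 under the normal diet and at 8.80 to 8.99 under the high-fat diet, without overlap and without a call (0.32 ± 0.11, limma adjusted p = 0.111). Tenascin-C (Tnc), a glycoprotein of injured tissue, differed by 0.24 ± 0.13. Thrombospondin-2 (Thbs2) and versican (Vcan), a large proteoglycan of provisional matrix, differed by -0.03 ± 0.12 and 0.004 ± 0.10 and were above the level filter on 4 of 6 arrays. Thbs1, which encodes an activator of TGF-beta, and Lamc3 had means of 3.30 and 3.31 under the normal diet and 3.30 and 3.41 under the high-fat diet. Of the 24 genes not called, 13 differed by less than 0.25, with 95% intervals between -0.42 and 0.55, and shifts within its own interval are not excluded for any of them.

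**Figure D3:**
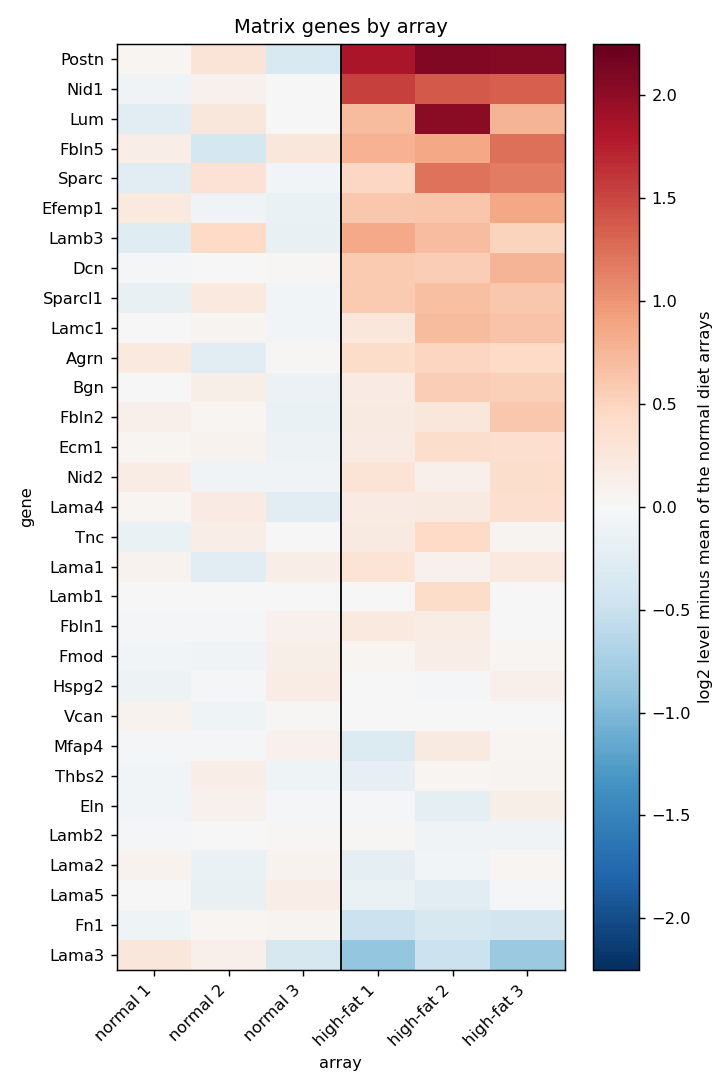
Each tested gene on each array, as the log2 level minus the mean of the normal diet arrays, ordered by the diet difference. The increases of Postn and Nid1 are alike on the 3 high-fat arrays, while Lum is darkest on high-fat 2 and Sparc palest on high-fat 1.

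Within each diet group the arrays were not alike for the matrix. High-fat 1 was the lowest of the 3 for 18 of 31 matrix genes, or 58.1%, against 36.2% of all tested genes. High-fat 2 was the highest for 14, or 45.2%, against 32.4%. Under the normal diet, normal diet 2 was the highest for 13 matrix genes, or 41.9%, against 29.6% of all tested genes. Normal diet 1 was the lowest for 13, or 41.9%, against 32.5%. The called collagen genes Col3a1, Col1a2 and Col5a2, outside the list, also had high-fat 1 lowest and high-fat 2 highest, while Col14a1 was highest on high-fat 3. Col3a1, a chain of fibrillar collagen, measured 7.48, 9.54 and 8.70 on high-fat 1, 2 and 3, and Col1a2 measured 7.44, 8.64 and 7.94. Postn had the same order within a narrow high-fat range, 7.06 to 7.31, and Nid1 had high-fat 1 highest, with a range of 7.08 to 7.28.

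Probe sets were also tested singly over all 45037 probe sets, where 2.33% were called higher and 0.786% lower. Of the 73 probe sets of matrix genes 6 were higher and 1 lower, and 26 were below the level filter on more than 3 arrays. The 6 higher were those used for Nid1, Dcn, Sparcl1, Fbln5, Efemp1 and Postn, and the lower one was the weaker Fn1 probe set, while the stronger missed the threshold here (adjusted p = 0.0569). In 11 genes at least 2 probe sets passed the level filter, and in 6 of them all such probe sets differed in the same direction (Lama3, Nid1, Hspg2, Fn1, Eln and Bgn). Postn, Sparcl1, Efemp1 and Lum each rest on 1 probe set.

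**Figure D4:**
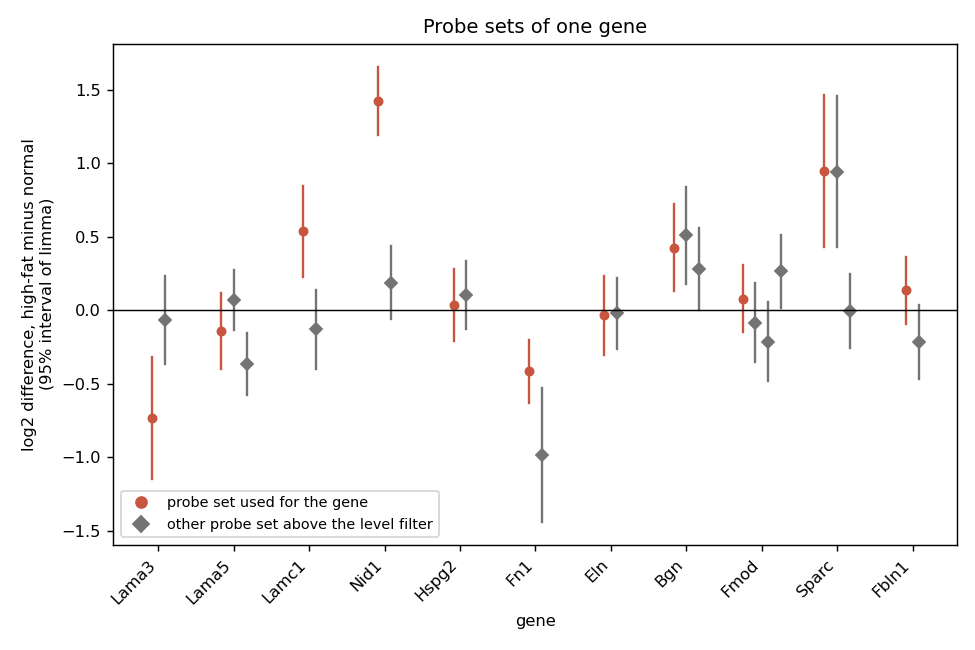
Difference in log2 level, high-fat minus normal diet, for every probe set above the level filter of the 11 genes that have several, with 95% intervals of limma. Both Fn1 probe sets lie below 0 and all 3 of Bgn above, while those of Lamc1, Lama5, Fmod, Sparc and Fbln1 fall on both sides of 0.

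Genes that build, bind or regulate this matrix were counted in further lists. Of 18 tested collagen genes 4 were called higher (22.2%, against 5.87% of all tested genes) and 0 lower (against 1.73%), and their median difference was 0.33. Col3a1 rose 4.92-fold (2.30 ± 0.47), Col1a2 2.52-fold (1.33 ± 0.29), Col5a2, a fibril-regulating chain, 2.34-fold, and Col14a1, which binds fibrils and decorin, 2.02-fold (limma adjusted p from 0.0153 to 0.0383). Col1a1, the partner chain of Col1a2, was not called, and its diets overlapped (0.21 ± 0.15, limma adjusted p = 0.415). The collagen IV genes Col4a1 and Col4a2 of the basement membrane differed by 0.10 ± 0.50 and 0.41 ± 0.19 and were not called, the normal diet arrays of Col4a1 spreading from 5.74 to 8.06. Among 27 matrix receptor genes 3 rose and 1 fell (11.1% and 3.7%), with a median of 0.02. Cd44, the hyaluronan receptor gene, rose 2.32-fold, the glypican gene Gpc1 2.61-fold and the integrin gene Itgb5 1.66-fold, while the syndecan gene Sdc4, a co-receptor for fibronectin, fell by 0.70 on the log2 scale (limma adjusted p from 0.00424 to 0.0142).

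For the lists that follow, 5.87% of all tested genes were called higher and 1.73% lower. Matrix assembly and crosslinking enzymes had 2 increases (13.3%) and 0 decreases among 15 tested genes. Of the 15 differences 10 were below 0, and the median was -0.04. The increases were Pcolce, an enhancer of procollagen processing (0.75 ± 0.14), and Crtap, a part of the prolyl 3-hydroxylation complex (0.77 ± 0.18), with limma adjusted p of 0.0214 and 0.0452. P4ha1 and Plod1, genes of collagen hydroxylases, were not called (-0.58 and 0.35). Of 16 TGF-beta genes 2 rose (12.5%, median 0.25), Tgfbi (0.63 ± 0.13) and Smad2 (0.69 ± 0.14), at limma adjusted p of 0.0304 and 0.0324. Tgfbr1 and Ccn2, a TGF-beta target, were not called at 0.31 and 1.35. Limma called 0 of 18 genes of glycosaminoglycan synthesis, whose median difference was -0.02. At an unadjusted p below 0.05, 4 were higher and 0 lower, a share near that of all tested genes. These were Chsy1 (0.60), Glce (0.63), Ext2 (0.27) and Hs2st1 (0.26). The 23 further basement membrane and elastic fibre genes stayed near the background, with 2 called higher (8.7%), 0 lower and a median of 0.03. These were Ntn4, a netrin that binds laminin, and the osteomodulin gene Omd (0.89 ± 0.18 and 1.07 ± 0.22, limma adjusted p = 0.0325 for both), and Prelp and Ntn1 were not called (0.57 and 0.45).

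The summed levels of markers of several other cell types were higher beside these genes. Each sum below is the log2 of the summed linear levels, in which the strongest markers weigh most. For the counts of markers, 5.87% of all tested genes were called higher, 1.73% lower, and 35.8% showed no overlap of the diets. The sum of 9 stellate markers was 9.905 to 9.990 on the normal diet arrays and 10.36 to 10.53 on the high-fat arrays, with 2 of 9 called higher: Lrat, the retinol esterifying enzyme of stellate cells (1.43 ± 0.32), and Colec11 (0.91 ± 0.10), at limma adjusted p of 0.0409 and 0.00508. Des and Reln were not called (-0.06 and 0.35), and 22.2% of the stellate markers showed no overlap of the diets. The 7 myofibroblast markers, collagens included, summed to 8.319 to 8.686 and 9.092 to 10.40, with 2 of 7 called. These 2 are Col3a1 and Col1a2, already counted above among the collagens, so they add no separate evidence. Acta2 and Col1a1 were not called (0.25 ± 0.13 and 0.21 ± 0.15), and Lox lay lower without a call (-0.18). The 8 endothelial markers summed to 9.995 to 10.16 and 10.25 to 10.38, with 2 of 8 called (Vwf and Lyve1). They include Vwf, Pecam1 and Cdh5, which are not particular to sinusoidal endothelium. The 6 Kupffer markers summed to 10.49 to 10.86 and 11.21 to 11.29, with 3 of 6 called and 2 of the 6 differences below 0. The 5 lipid-associated macrophage markers summed to 8.109 to 9.072 and 9.369 to 9.531, with 3 of 5 called higher, a median difference of 1.08 and no overlap of the diets in any of the 5, Trem2 lying lower (-0.43). None of the markers in these 5 lists was below the level filter on all arrays. The 3 neutrophil markers summed lower, 7.132 to 7.818 and 6.688 to 7.115, with 0 of 3 called, and the 3 lymphocyte markers to 6.349 to 6.443 and 6.326 to 6.432. The 5 cholangiocyte markers summed to 6.719 to 6.934 and 6.576 to 6.714, with 1 below the filter throughout. Of 4 mesothelial markers 3 were below it on all arrays, and of 4 portal fibroblast markers 2 were, Cd34 and Gli1. The 4 portal fibroblast markers summed to 6.449 to 6.819 and 6.910 to 7.085, with 0 of the 2 tested called. The part of these cell types in the differences of the matrix genes was not tested.

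**Figure D5:**
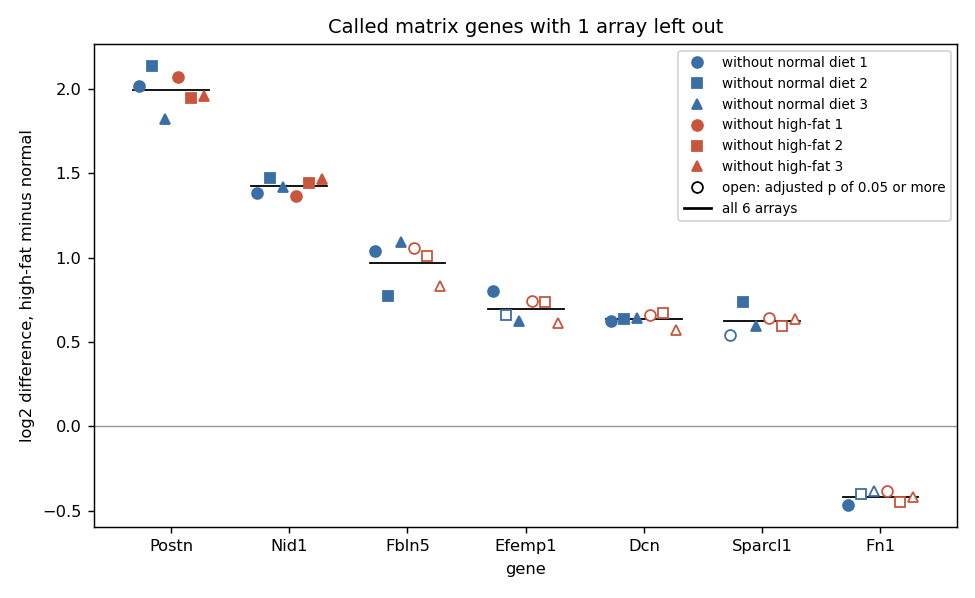
Log2 difference of the 7 called genes with 1 array left out at a time (filled: limma adjusted p below 0.05, open: not called) beside the value from all 6 arrays (black line). Postn and Nid1 are filled throughout, while Fbln5, Efemp1, Dcn, Sparcl1 and Fn1 are open whenever a high-fat array is left out, at values close to those from all arrays.

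Leaving out a single array changed the number of called matrix genes more than their differences. Without normal diet 1, 2 or 3, 6, 7 and 6 matrix genes were called higher, and without high-fat 1, 2 or 3, 4, 2 and 2 were. Over all tested genes, 5.48%, 5.42% and 6.63% were higher in the former fits and 1.51%, 1.15% and 0.874% in the latter. Postn and Nid1 were the only matrix genes called higher in each of these fits. The 4 genes called without high-fat 1 were Nid1, Postn, Sparc and Lamc1.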

How the data were processed

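Liver RNA of 3 normal diet and 3 high-fat arrays was analysed on Affymetrix mouse genome arrays. Per the submitters' processing notes, the authors used RMA in Expression Console 1.0, and they deposited 1 log2 level for each probe set and array. Differences of weakly expressed genes are understated by RMA. Of 45101 probe sets, 64 controls were left out.

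Of the rest, 34945 had 1 gene symbol, 932 several and 9160 are unnamed here. The strongest probe set by mean stood for its gene. For all 33 matrix genes with a probe set the gene ID was found in the RefSeq gene table (GRCm38.p6), with 0 symbols changed.

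Samples were grouped by their titles. Limma 3.58.1 in R 4.3.3 was fitted to 14071 genes (lmFit, then eBayes), and its two-sided p-values were adjusted by Benjamini and Hochberg's method over all these genes. The p-values weigh the spread between arrays of pooled RNA. Every member is named, with each array's value where it was called or differed by at least 0.5, and up to 4 genes with the smallest p in each of 6 further lists. Collagen IV genes, Kera, Epyc and the marker genes were added by content. Of 229 list entries 213 matched a gene. Among them Loxl2 was paired through a synonym with Loxl3, a different gene that was also listed and was not counted again. The members and lists were chosen with earlier results of these data known. Alternatives changed the level filter, variance model, array weights, scaling, probe set choice, threshold, replicate block and arrays. The test was checked on simulated data, where it recovered 16.4% of 1.5-fold, 76.1% of 2-fold and 98.5% of 4-fold changes. Smaller changes were thus mostly missed there, though the simulated share of changed genes was smaller than the share called here. Python 3.11.15, pandas 2.3.3 and matplotlib 3.10.9 were used for motifs and plots.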

Additional observations from a re-analysis of the deposited data

How the results depend on the processing

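With 3 arrays per diet, the calls of matrix genes other than Postn and Nid1 were each lost when any high-fat array was left out. At an adjusted p below 0.01, 2 matrix genes were higher and 0 lower, with 125 and 47 of all genes and 2 matrix probe sets called. With array weights 2 matrix genes and 373 genes were lower, and after median centring 0 matrix genes were lower; the cause was not tested. Leaving out 1 array gave 2 to 7 matrix genes higher and 0 to 1 lower, with 2 to 7 matrix probe sets called. Over all tested genes 123 to 933 were higher and 46 to 312 lower. Those higher numbered 771, 763 and 933 without normal diet 1, 2 or 3, and 213, 162 and 123 without high-fat 1, 2 or 3. Each of these fits has 1 array fewer, and why the counts differ was not tested. The normal and high-fat arrays share replicate numbers, but nothing in the labels pairs them. Deviations of same-numbered arrays from their group means correlated at -0.0122, 0.0359 and 0.0999, and not every array correlated best with its own number. With a replicate block 7 matrix genes were higher and 0 lower, with 581 and 187 of all genes and 9 matrix probe sets called. Of the 7 calls, 5 were kept under the block. Efemp1 (adjusted p = 0.0593) and Fn1 (0.0828) were not called, and Lum (0.0419) and Sparc (0.0286) were.

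Of 514 alternative values of single matrix genes, 451 kept direction and side of the threshold and 24 changed sign, all in genes not called. Part of this tally was fixed in advance. Changing the level filter, threshold, replicate block or variance model (trend and robust) leaves each difference as it was, so its sign could not turn there. Averaging the probe sets likewise left the 11 genes with 1 probe set as they were. Array weights did change the differences. The stricter threshold also could not add a call. After quantile normalization Hspg2, Thbs2 and Mfap4 were at -0.10, 0.035 and 0.033, and after cyclic loess Hspg2, Thbs2, Mfap4 and Lamb2 at -0.086, 0.050, 0.059 and 0.036. After median centring Lamb2, Eln, Thbs2 and Mfap4 were at 0.010, 0.010, 0.018 and 0.026. Mfap4 was at 0.028 with array weights, and Fbln1 at -0.21 with probe sets without a suffix. With 1 array left out Lamb1 ran from -0.0017 to 0.21, Hspg2 from -0.020 to 0.12, Eln from -0.12 to 0.056, Thbs2 from -0.073 to 0.048, Vcan from -0.049 to 0.043 and Mfap4 from -0.13 to 0.12.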
